A study of Mus musculus with 4 samples.

Results

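The genes described here are 48 markers of the dividing cell, 21 of S phase, 25 of G2 and mitosis (G2/M) and a pair used for both, Stmn1 and Hmgb2, out of the 32285 genes counted. They were chosen by symbol, and all 48 were listed in every library. Their levels were read in single-cell RNA-seq of mouse mammary tumors, in 23572 barcodes (cell-containing droplets) of at least 1000 unique molecular identifiers (UMIs, 1 per captured RNA molecule) and at most 20% mitochondrial UMIs.

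A cell that commits to division makes cyclin E, loads the MCM helicase onto its origins, and copies its DNA with the clamp PCNA and with nucleotides made by ribonucleotide reductase and thymidylate synthase. The E2F factors switch on most of these S-phase genes when the retinoblastoma protein is phosphorylated. The G2/M genes come later: cyclins A and B drive CDK1, the Aurora and Polo kinases, kinesins and centromere proteins build the spindle and attach the chromosomes, and CDC20 with UBE2C directs the destruction that ends mitosis. In tumors the protein Ki67, the product of Mki67, is commonly stained to count cycling cells.

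All 4 mice carried the PyMT oncogene under the MMTV promoter, which is active in mammary epithelium, and a floxed Frmd8 gene on both alleles. The 2 Cre- mice (MMTV-Cre-; Frmd8fl/fl; PyMT, replicates 1 and 3) kept Frmd8, and in the 2 Cre+ mice (MMTV-Cre+; Frmd8fl/fl; PyMT, replicates 2 and 4) an MMTV-driven Cre was to remove exons 4 to 6 in the luminal epithelium. Tumors were taken at 17 to 18 weeks, the cells were sorted by flow cytometry, and 1 library was made per mouse. The MMTV-driven Cre was meant for the mammary epithelium, and its action in stromal or immune cells was not measured here. The 3′ counts used here can also arise from a transcript without these exons.

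The libraries held 112729231 to 157662955 UMIs, and the barcodes kept had medians of 12455 to 13072.5 UMIs. Pairs of libraries shared 6 to 16 barcode sequences. Cre+ replicate 4 was deposited with all 2582424 barcodes, empty ones included, and was made with another Cell Ranger version than the rest, so that its processing and its mouse cannot be told apart. Cell classes were gates on the UMIs of 11 marker lists that hold no cell cycle gene, and a barcode with a second list at over 0.5 times the first was called mixed and left out. Wherever 4 values are listed, the Cre- libraries (1, then 3) come before the Cre+ libraries (2, then 4). The 3′ method counts 1 end per molecule, so levels were not divided by transcript length.

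The targeted gene was read first. Frmd8 stood at 24.2, 24.4, 5.52 and 10.9 UMIs per 1000000 (CPM) in the epithelial barcodes of the 4 libraries. Both Cre+ libraries lay below both Cre- libraries, with a log2 fold change of -1.47 ± 0.43 (SE) that did not pass the threshold (edgeR, adjusted p = 1.00). In macrophages it was 25, 23.5, 18.6 and 13.5 CPM, again with both Cre+ libraries below both Cre- libraries, as for 18.8% of all genes tested there.

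Many promoters of the genes, but not all, hold elements by which these groups are known to be timed. A few are shown because some of these elements were more frequent in the S-phase or in the G2/M members. RefSeq (GRCm38.p6) gave a promoter for 39 of the 48 members, a window from 250 bases before to 50 bases after the start. The cell cycle homology region, CHR (TTTGAA, either strand), is the site through which the MuvB complex holds back G2/M genes. It was present in 15 of 20 G2/M promoters and in 2 of 18 S-phase promoters, against 20.2% of all 27025 genes with a window. The CCAAT box (CCAAT, either strand), bound by NF-Y, was in 18 of 20 G2/M and 12 of 18 S-phase promoters, against 41.1% of all. An E2F-type site (TTTCCCGC, TTTCGCGC, TTTGCCGC or TTTGGCGC, either strand) was in 10 of 18 S-phase promoters and 1 of 20 G2/M promoters, against 2.60% of all. A match is a description of letters and not of binding.

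Upstream stretches of 5 G2/M genes are given 5′ to 3′ in the direction of the gene, and each ends at the base before the start. Capitals mark the CHR or its reverse complement (TTCAAA). The stretch of Mki67 lies at chr7:135716380-135716499, minus strand. The stretch of Cdk1 lies at chr10:69352913-69353032, minus strand. The stretch of Ube2c lies at chr2:164769809-164769928, plus strand. The stretch of Cdc20 lies at chr4:118437344-118437463, minus strand. The stretch of Kif11 lies at chr19:37376262-37376381, plus strand.
Mki67: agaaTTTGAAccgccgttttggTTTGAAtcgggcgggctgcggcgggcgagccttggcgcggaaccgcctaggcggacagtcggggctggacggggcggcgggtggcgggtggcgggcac
Cdk1: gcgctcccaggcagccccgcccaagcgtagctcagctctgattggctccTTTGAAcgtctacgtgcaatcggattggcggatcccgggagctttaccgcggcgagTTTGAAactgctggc
Ube2c: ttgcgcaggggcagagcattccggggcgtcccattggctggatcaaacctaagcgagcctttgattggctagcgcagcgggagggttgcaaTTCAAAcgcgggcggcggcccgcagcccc
Cdc20: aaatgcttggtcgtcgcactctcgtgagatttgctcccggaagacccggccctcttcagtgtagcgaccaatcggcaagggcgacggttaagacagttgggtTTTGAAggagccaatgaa
Kif11: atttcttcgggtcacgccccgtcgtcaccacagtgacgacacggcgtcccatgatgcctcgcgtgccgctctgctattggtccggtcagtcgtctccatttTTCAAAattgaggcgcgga

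The first base of the CHR lay at position -29 from the start in Ube2c, -18 in Cdc20 and -19 in Kif11. Mki67 and Cdk1 held 2 copies each, at -116 and -98 in Mki67 and at -71 and -15 in Cdk1.

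For 4 S-phase genes the capitals mark the E2F-type sites, of which a pair overlaps in Mcm5 and in Mcm6. The Mcm5 stretch is chr8:75109349-75109508, plus strand. The Mcm6 stretch is chr1:128359706-128359865, minus strand. The Hells stretch is chr19:38930830-38930989, plus strand. The Dtl stretch is chr1:191575545-191575704, minus strand.
Mcm5: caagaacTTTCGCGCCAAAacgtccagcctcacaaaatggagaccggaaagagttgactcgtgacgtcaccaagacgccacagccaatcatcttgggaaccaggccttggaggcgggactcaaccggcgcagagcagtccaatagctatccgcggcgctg
Mcm6: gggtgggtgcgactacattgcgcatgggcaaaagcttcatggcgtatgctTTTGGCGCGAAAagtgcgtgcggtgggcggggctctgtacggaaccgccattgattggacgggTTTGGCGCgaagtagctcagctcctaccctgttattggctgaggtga
Hells: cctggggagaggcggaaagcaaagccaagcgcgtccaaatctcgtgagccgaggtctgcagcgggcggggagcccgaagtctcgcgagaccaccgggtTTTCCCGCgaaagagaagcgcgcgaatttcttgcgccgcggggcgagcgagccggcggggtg
Dtl: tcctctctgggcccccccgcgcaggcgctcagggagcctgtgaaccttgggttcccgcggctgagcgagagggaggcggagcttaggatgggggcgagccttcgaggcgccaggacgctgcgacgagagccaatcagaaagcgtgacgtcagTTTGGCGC

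Summed over a class, so that deeper barcodes weigh more, the G2/M genes had their highest means in NK cells, T cells and pericytes. Of the classes with at least 25 barcodes in every library, granulocytes had the lowest mean. Epithelial barcodes, 10364 in all, held 453, 630, 387 and 551 CPM of the 21 S-phase genes and 590, 1001, 532 and 902 CPM of the 25 G2/M genes. Their G2/M level was 756 ± 230 CPM (SD, n = 4 libraries). The 2 highest epithelial values were those of Cre- replicate 3 and Cre+ replicate 4, 1 of each genotype.

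**Figure D1:**
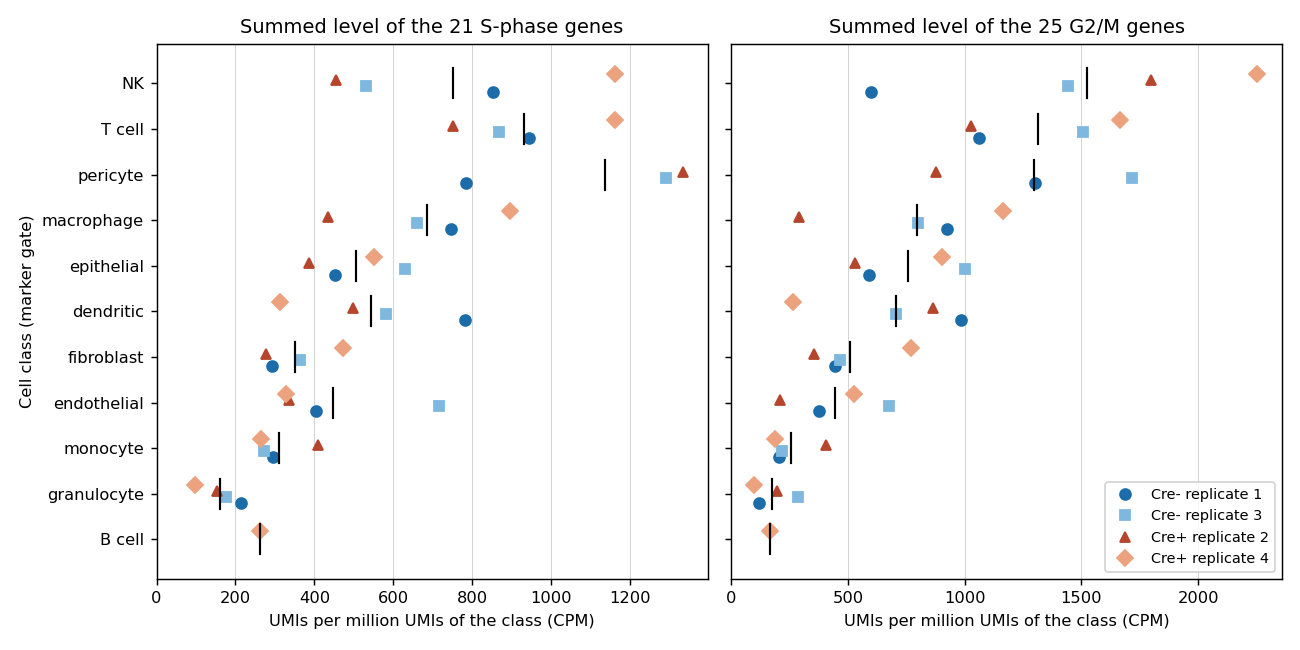
Summed level of the 21 S-phase genes (left) and the 25 G2/M genes (right) in CPM on linear axes, for each marker-gated class. Each symbol is 1 library with at least 25 barcodes of the class, and the black bar is their mean. Granulocytes averaged 173 CPM of G2/M genes, epithelial barcodes 756 CPM and NK barcodes 1523 CPM.

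T cell barcodes held 1061, 1507, 1025 and 1667 CPM of G2/M genes, a mean of 1315 ± 321 CPM (SD, n = 4), and each library's value was above that of its epithelial barcodes. NK barcodes, with only 32 to 109 per library, ranged from 597 to 2254 CPM. Pericytes, the contractile cells around small vessels, had 1302, 1718 and 877 CPM in the 3 libraries with at least 25 of them. Macrophages (5605 barcodes) held 924, 799, 290 and 1165 CPM, so that Cre+ replicates 2 and 4 were the lowest and the highest of the 4. Fibroblasts (446, 464, 356 and 771 CPM) and endothelial cells (375, 675, 210 and 524 CPM) had lower means, and their ranges overlapped that of the epithelium. With 3 marker genes in the gate, the fibroblast value of Cre+ replicate 4 was 407 CPM, over 165 barcodes. Neighbors in the order of means (NK, T cell and pericyte, then macrophage, epithelial and dendritic, then fibroblast and endothelial) overlapped in their libraries.

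Granulocytes, short-lived cells that leave the cycle in the bone marrow, held 117, 284, 196 and 95.8 CPM of G2/M genes and 215, 176, 153 and 98.4 CPM of S-phase genes. They give the level found in barcodes of a class that should not divide, and not an upper bound for free RNA. Barcodes of Cre+ replicate 4 taken as empty (at most 100 UMIs) held 833 CPM of G2/M genes. Monocytes, at 206, 217, 406 and 185 CPM of G2/M genes, overlapped the granulocytes. The ratio of G2/M to S-phase UMIs was 1.48 ± 0.16 (SD, n = 4) in epithelial barcodes, 1.10 ± 0.29 in macrophages and 0.80 ± 0.14 in monocytes. Granulocytes (1.10 ± 0.45), fibroblasts (1.43 ± 0.18) and T cells (1.41 ± 0.25) lay in the same range.

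As a measure of cycling, cell cycle UMIs were counted after each barcode was thinned to 1000 UMIs, since deeper barcodes show more genes. A barcode was called G2/M-positive with at least 2 UMIs of the 25 G2/M genes, and S-positive with at least 2 of the 21 S-phase genes. Free RNA can add to these UMIs, so a positive barcode is not always a cycling cell. Among epithelial barcodes, 6.68% (95% exact interval 5.72 to 7.74), 13.2% (11.8 to 14.6), 5.04% (4.22 to 5.97) and 17.5% (16.2 to 18.9) were G2/M-positive. S-positive shares were 5.98%, 10.5%, 5.2% and 12.3% in the same libraries. Either call was met by 9.80%, 17.5%, 7.52% and 21.4%. These intervals cover counting error alone, and those of Cre- replicate 3 and Cre+ replicate 4 did not overlap with the others. Without thinning, 44.4% to 65.8% of epithelial barcodes held at least 1 G2/M UMI.

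In granulocytes the G2/M-positive share was 0 of 224 barcodes (which allows up to 1.34%), 5.13% of 78, 3.70% of 27 and 0 of 74 (up to 4.05%). The epithelial share exceeded it in 4 of 4 libraries, by 8.38 points on average (exact two-sided sign-flip test over mice, p = 0.125, the smallest that 4 mice allow). With barcodes thinned to 2000 UMIs it was lower in Cre+ replicate 2 (6.62% against 11.1%), so that 3 of 4 libraries remained (exact p = 0.25). Granulocytes had medians of 3593.5 to 3849 UMIs before thinning and epithelial barcodes 11692 to 22608. Monocyte shares (2.27%, 1.46%, 3.57% and 1.97%) overlapped the granulocyte range, and no difference between these classes was tested.

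**Figure D2:**
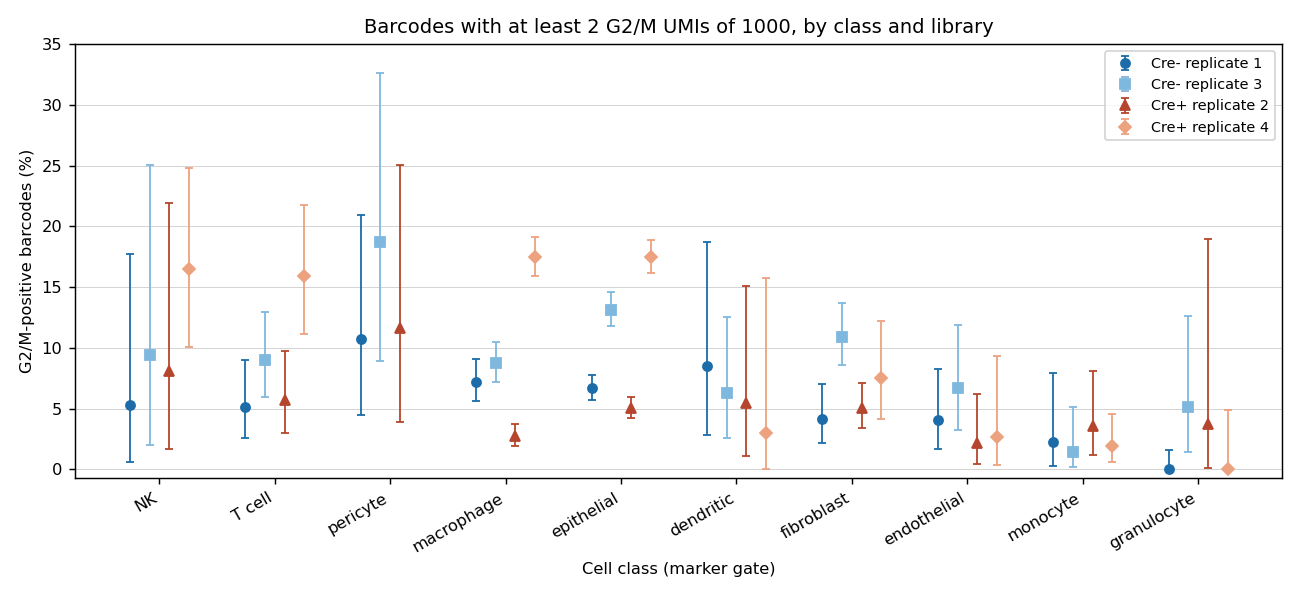
G2/M-positive barcodes in percent (at least 2 UMIs of the 25 G2/M genes among 1000) by class on a linear axis. Symbols are libraries with at least 25 barcodes of the class, and bars are 95% exact binomial intervals. In epithelial barcodes the shares run from 5.04% to 17.5%, in macrophages from 2.75% to 17.5% and in granulocytes from 0 to 5.13%.

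Macrophages were G2/M-positive at 7.19%, 8.74%, 2.75% and 17.5%, T cells at 5.14%, 9.03%, 5.69% and 15.9%, and pericytes at 10.8%, 18.8% and 11.6% in the 3 libraries that held enough. The mean share was 8.94% in T cells and 9.82% in NK cells, against 10.6% in epithelial barcodes, with overlapping libraries for T cells. By mean summed level both classes lay above the epithelium. In pericytes the mean share was 13.7%. Fibroblast shares were 4.11%, 10.9%, 5.03% and 7.49%. By this share, Cre+ replicate 4 was highest in epithelial barcodes, macrophages, T cells and NK cells. It was not highest in fibroblasts, endothelial cells, monocytes, dendritic cells or granulocytes. By summed G2/M level it was highest in fibroblasts (771 CPM, but 407 CPM with 3 marker genes in the gate). Its epithelial and macrophage barcodes of 1000 to 2000 UMIs were 19.9% and 20.1% positive. The other libraries had 6.29% to 15.5% and 1.85% to 6.67% there. Barcodes of Cre+ replicate 4 taken as empty held 0.83 G2/M UMIs per 1000 UMIs on average. How often free RNA alone would reach the 2 UMIs of the call was not counted, and a mean does not give it. The part of free RNA in these shares was not tested. Over all barcodes used, 6.16%, 11.1%, 4.56% and 16.2% were G2/M-positive.

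Within the epithelium, the S-phase genes with the highest level were Pcna, the sliding clamp of the replication fork, and Pclaf, a protein bound to it. Pcna stood at 79.1, 95.6, 73.8 and 93.6 CPM, the narrowest spread of the 48 members, with the highest library at 1.30 times the lowest. Pclaf stood at 44.5, 91.4, 39.8 and 55.5 CPM. The lowest was Ccne2, a cyclin E that activates CDK2, with 2.59, 4.28, 3.16 and 2.97 CPM, and its paralog Ccne1 had 6.22, 9.61, 4.95 and 6.29 CPM.

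Of the MCM helicase, Mcm2 had 14.1, 15.3, 9.34 and 14.7 CPM and Mcm6 36.2, 34.3, 25.3 and 27.8 CPM. The factors that load the helicase were rarer, Cdc6 at 3.99, 5.32, 3.08 and 6.73 CPM and Cdt1 at 9.23, 10.6, 6.73 and 10.8 CPM. Tyms, thymidylate synthase, had 29.8, 47.6, 28.8 and 51.3 CPM. Rrm2, the regulated subunit of ribonucleotide reductase, had 22.8, 42.8, 17.6 and 62.7 CPM, the widest ratio between libraries of all 48 members at 3.57. Its partner Rrm1, which is present outside S phase too, varied 1.5-fold. Uhrf1, which reads half-methylated DNA behind the fork, had 18.9, 27.9, 11.4 and 18.2 CPM.

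**Figure D3:**
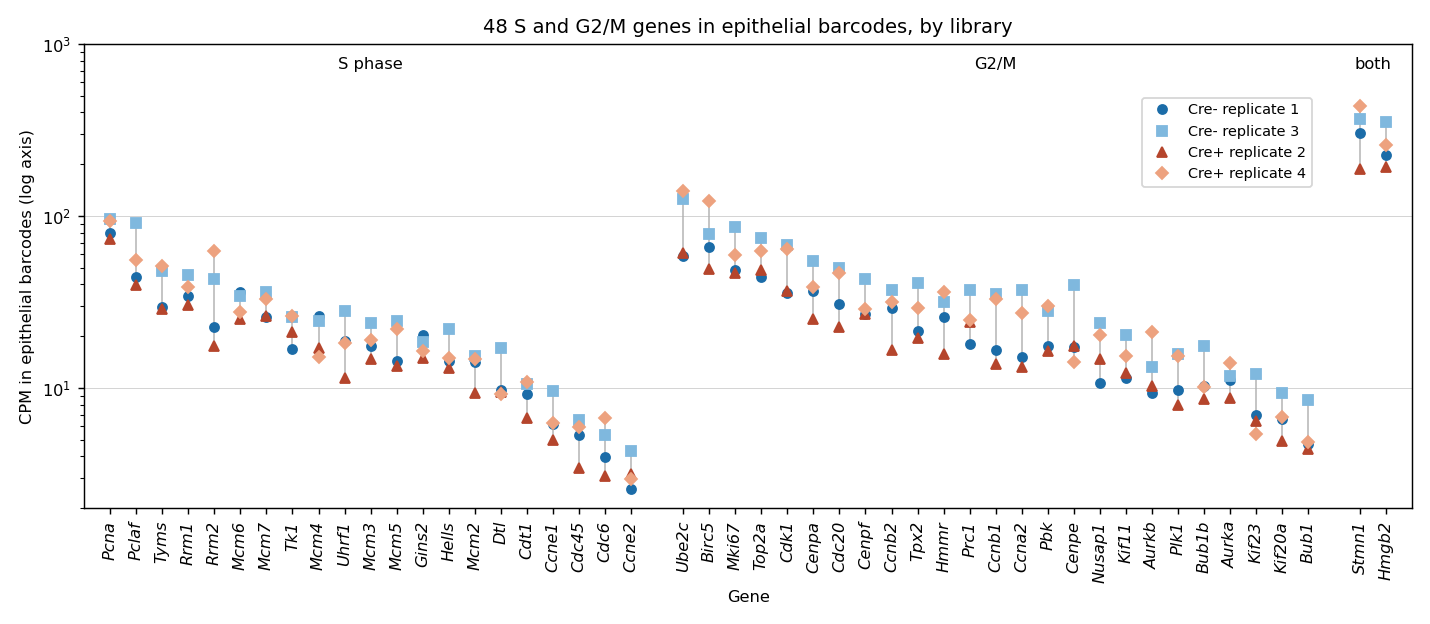
Level of each of the 48 genes in epithelial barcodes in CPM on a log axis, ordered by mean within the S, G2/M and shared groups. Each symbol is 1 library, and the gray line joins the lowest to the highest. Cre- replicate 3 was the highest library for 33 of 48 genes and Cre+ replicate 2 the lowest for 34. Of all genes tested there, 28.5% were highest in Cre- replicate 3 and 14.8% lowest in Cre+ replicate 2.

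Among the G2/M genes of the epithelium, Ube2c, the ubiquitin-conjugating enzyme of the anaphase-promoting complex, led with 58.4, 125, 61.0 and 140 CPM. Birc5 (survivin), of the chromosomal passenger complex, followed with 66.0, 78.9, 48.9 and 122 CPM. Mki67, whose protein coats mitotic chromosomes, had 48.5, 86.6, 46.8 and 59.5 CPM, and Top2a, the topoisomerase that untangles them, 44.4, 74.5, 48.2 and 62.3 CPM. For Mki67 and Top2a the highest library was Cre- replicate 3, and for Ube2c and Birc5 it was Cre+ replicate 4.

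Cdk1, the mitotic kinase, had 35.7, 68.0, 36.5 and 64.4 CPM. Its cyclins Ccna2 (15.2, 37.3, 13.2 and 27.4 CPM) and Ccnb1 (16.6, 35.1, 13.8 and 33.1 CPM) showed the same order of libraries as each other. The kinases of the spindle were lower, Plk1 at 9.77, 15.7, 7.92 and 15.4 CPM and Aurka at 11.1, 11.7, 8.79 and 14 CPM. Bub1, a kinase of the spindle checkpoint, was the lowest G2/M member, with 4.75, 8.52, 4.40 and 4.87 CPM. The shared genes were the most abundant: Stmn1, which destabilizes microtubules, had 304, 365, 186 and 433 CPM, and the chromatin protein Hmgb2 226, 353, 191 and 258 CPM.

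In macrophages the members moved between libraries as a block. All 48 were lowest in Cre+ replicate 2, and 44 of 48 were highest in Cre+ replicate 4. Of all 12863 genes tested there, 26.9% were lowest in Cre+ replicate 2 and 24.2% highest in Cre+ replicate 4. Top2a had 97.9, 88.8, 31.6 and 112 CPM and Mki67 98.2, 92.1, 31.8 and 99.4 CPM. Pcna again led the S-phase genes at 224, 178, 156 and 193 CPM, and varied 1.44-fold against 6.65-fold for Ccnb2, a cyclin B (24.3, 29.1, 6.88 and 45.8 CPM).

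Epithelial barcodes were compared with 3 other classes of the same mice, with the mouse as a block (edgeR quasi-likelihood test, log2 fold changes ± SE). The values of each comparison rest on the same epithelial sums. Against macrophages, 63.2% of 15259 genes were called in either direction, 33.3% higher and 29.9% lower in the epithelium, and 18 of 48 members were called, 3 higher and 15 lower. Against fibroblasts 56.6% of 15494 genes were called (28.8% higher, 27.9% lower) and 20 members, 19 higher and 1 lower. Against T cells 56.9% of 14691 genes were called (32.8% higher, 24.0% lower) and 33 members, 1 higher and 32 lower. The median log2 fold change of the members was -0.47, 0.45 and -0.90, beside 0.07, 0.08 and 0.17 for all genes tested. Within upper depth limits of 5000 genes and 30000 UMIs, referred to as the depth limits, the member medians were -0.075, 0.77 and -1.74, and against macrophages 24 members were then positive and 24 negative.

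Against macrophages, 9 of the 21 S-phase genes were called lower in the epithelium and 1, Rrm2, higher. Mcm3 had 18.8 ± 3.8 CPM (SD, n = 4) in the epithelium and 55.7 ± 10.9 in macrophages, and was lower in 4 of 4 libraries (log2 -1.93 ± 0.14, adjusted p = 4.2e-05). Pcna (-1.5 ± 0.12, adjusted p = 6.4e-05) and Cdt1 (-1.33 ± 0.13, adjusted p = 0.00015) also fell with no overlap between the classes. Mcm2, Mcm4, Mcm5 and Mcm6 were called lower too, so that 5 of the 6 MCM subunits were, and Mcm7 was not called. Hmgb2 was lower at -0.99 ± 0.20 (adjusted p = 0.0052). The mitotic genes Mki67 (-0.70 ± 0.24, adjusted p = 0.0421) and Top2a (-0.78 ± 0.27, adjusted p = 0.0381) lay close to the threshold and lost the call without Cre- replicate 1, Cre- replicate 3 or Cre+ replicate 4, and without the mouse as a block. The genes called higher were Cdc20, the activator of the anaphase-promoting complex (0.84 ± 0.25, adjusted p = 0.0222), Rrm2 (0.50 ± 0.18, adjusted p = 0.04996) and Stmn1 (0.49 ± 0.15, adjusted p = 0.0296), each higher in 4 of 4 libraries, and all 3 lost the call without Cre- replicate 3 or Cre+ replicate 2, without the barcodes under 1% mitochondrial UMIs, and without the block (12 members called, 0 higher). Without Cre- replicate 3, 10 members were called among 8631 of 15432 genes, and without the block the 12 lay among 9253 of 15259. Dtl, which marks Cdt1 for destruction, did not overlap (11.4 ± 3.8 against 6.29 ± 2.12 CPM) but was not called (0.49 ± 0.27, adjusted p = 0.157).

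The scaling moved the log2 fold changes of this comparison. TMM factors put them 0.37 below the ratio of the mean CPM for the median gene, and 19 of 48 members had the higher mean CPM in the epithelium against 8 with a positive log2 fold change. No called member had a CPM ratio of the other sign.

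**Figure D4:**
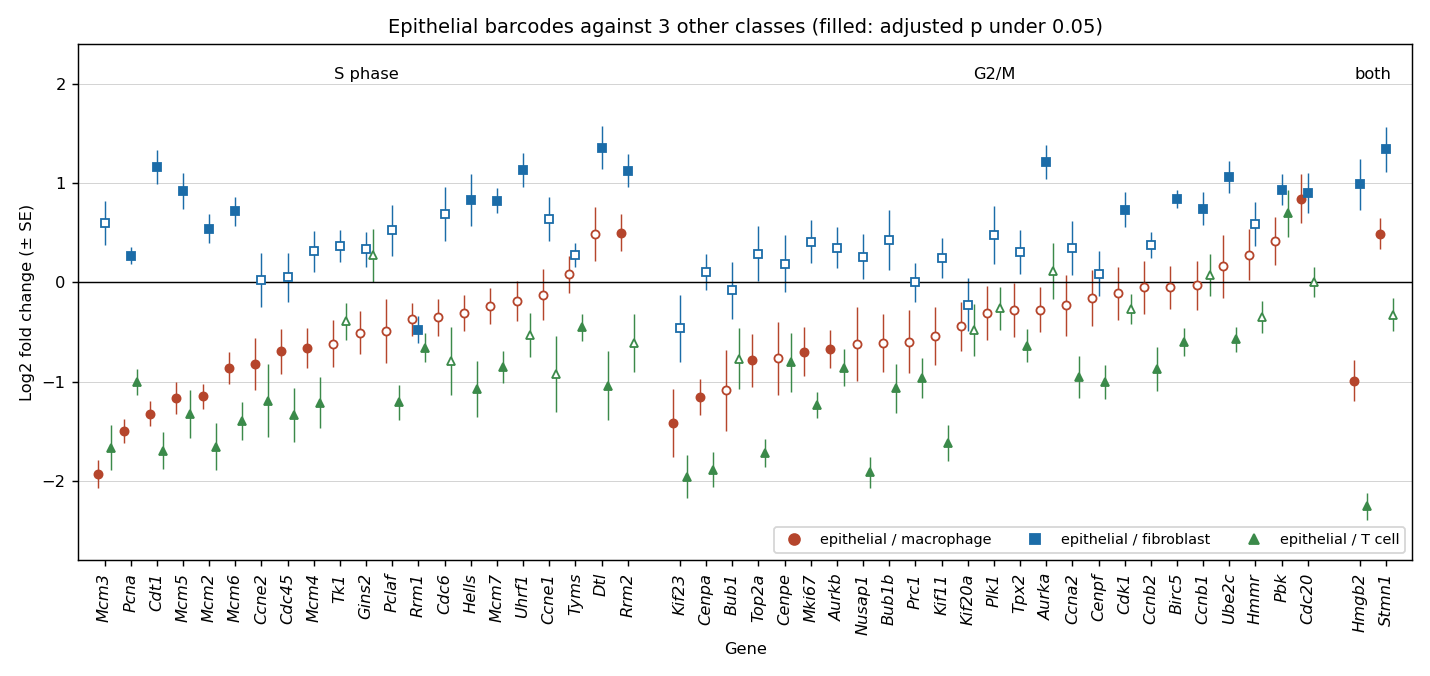
Log2 fold change ± SE of each member in epithelial barcodes against macrophages, fibroblasts and T cells of the same 4 mice, on a linear axis. Filled symbols have an adjusted p under 0.05 (edgeR). The members called against fibroblasts lie above 0 except Rrm1, and those called against T cells lie below 0 except Pbk.

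Against fibroblasts, the members that stood out were Dtl (11.4 ± 3.8 against 4.16 ± 1.09 CPM, log2 1.35 ± 0.22, adjusted p = 0.0035), Aurka (11.4 ± 2.2 against 4.84 ± 1.79 CPM, 1.21 ± 0.17, adjusted p = 0.0023) and Cdt1 (9.34 ± 1.87 against 4.11 ± 1.49 CPM, 1.16 ± 0.17, adjusted p = 0.0027). Ube2c rose by 1.06 ± 0.16 and Stmn1 by 1.34 ± 0.23 on the log2 scale. Rrm1 was the member called lower, 37.2 ± 6.5 against 48 ± 2.7 CPM (-0.48 ± 0.14, adjusted p = 0.0269), and it lost the call without Cre- replicate 1, Cre- replicate 3 or Cre+ replicate 2. It also lost the call with no filter on low counts and with 3 marker genes in the gate. With that gate 26 members were called, all higher, among 9119 of 15602 genes called in either direction (4608 of them higher). Mki67 (0.41 ± 0.22, adjusted p = 0.161) and Top2a (0.29 ± 0.27, adjusted p = 0.403) were not called. Within the depth limits 5 members were called, all higher, among 6299 of 13075 genes. Without the block 10 members were called among 8659 of 15494 genes, and Stmn1 was not one of them.

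Against T cells, Kif23, a kinesin of the central spindle (7.69 ± 2.96 against 26.6 ± 3.7 CPM, log2 -1.96 ± 0.22, adjusted p = 4.7e-05), Nusap1, a spindle protein (17.4 ± 5.8 against 59.5 ± 14.1 CPM, -1.91 ± 0.16, adjusted p = 5.9e-06), and Cenpa, the centromeric histone (38.9 ± 12.3 against 130 ± 21 CPM, -1.89 ± 0.17, adjusted p = 1.4e-05), were lower in 4 of 4 libraries with no overlap. Top2a fell by 1.72 ± 0.14 and Hmgb2 by 2.26 ± 0.14 on the log2 scale. Pbk, a mitotic kinase, was called higher (23.0 ± 7.05 against 13.2 ± 4.08 CPM, 0.69 ± 0.23, adjusted p = 0.0295), and it lost the call in 7 of the 13 alternatives and turned sign within the depth limits. T cell medians were 5533 to 9963 UMIs, below those of epithelial barcodes. In barcodes of at least 5000 UMIs 39 members were called lower and within the depth limits 41, with medians of -1.05 and -1.74. Of all genes, 3316 of 14551 and 3358 of 12477 were called lower in these settings.

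Macrophages were set against granulocytes as a class outside the cycle. Of 11197 genes tested, 23.2% were higher and 18.6% lower in macrophages, and 45 of 48 members were called higher, 2 lower (Kif23 and Hmgb2), with Mcm4 not called (0.62 ± 0.42, adjusted p = 0.247). Within the depth limits 24 of the 42 members fitted were called, with a median of 1.78, among 4668 of 10552 genes. At 5000 UMIs or more 34 members were called, among 2251 of 10817 genes. With an order-of-magnitude cell call for Cre+ replicate 4 (only its barcodes above 10978 UMIs), 35 members were called, among 2611 of 11100 genes. Top2a had 82.5 ± 35.3 CPM (SD, n = 4) in macrophages and 5.74, 0, 8.52 and 2.52 CPM in granulocytes (log2 4.49 ± 0.47, adjusted p = 4.3e-06). Mcm3 (55.7 ± 10.9 CPM against 3.44 CPM in Cre- replicate 1 and 0 in the others), Mki67 (2.77 ± 0.32) and Pcna (1.28 ± 0.25) were also called higher. Ccne1, Ccne2, Cdc6, Bub1 and Kif20a had no UMI in any granulocyte library. Against 3 UMIs over all 1720532 granulocyte UMIs, Bub1 was at least 6.80-fold, Kif20a at least 4.87-fold and Ccne1 at least 3.88-fold higher in macrophages. The members' median log2 fold change was 3.08, and 2.81 with these 5 at their bounds, beside 0.24 for all genes.

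The members called higher in granulocytes were Hmgb2, at 718, 684, 929 and 507 CPM against 367, 357, 267 and 633 in macrophages (log2 -0.90 ± 0.27, adjusted p = 0.0163), and Kif23, at 39.0, 41.8, 136 and 30.3 CPM against 20.4, 19.0, 5.89 and 22.0 (-1.67 ± 0.51, adjusted p = 0.0167). Kif23 was higher in granulocytes in 4 of 4 libraries and Hmgb2 in 3 of 4. Both lost the call in barcodes of at least 5000 UMIs, where Kif23 turned to 0.23, in those of at least 1% mitochondrial UMIs, and with the order-of-magnitude cell call. Hmgb2 also lost it without Cre+ replicate 2 and with DESeq2. With 27 to 224 granulocyte barcodes per library, single UMIs weigh heavily on these values.

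Of 34 further genes that control entry into the cycle, the D cyclins, which start the cycle with CDK4 and CDK6, differed in direction. Ccnd2 had 3.96 ± 2.79 CPM (SD, n = 4) in the epithelium, 53 ± 28.6 in macrophages, 228 ± 32 in fibroblasts and 362 ± 93 in T cells, and was called lower in the epithelium in all 3 comparisons. Ccnd1 had 190 ± 56 CPM in the epithelium, 73.1 ± 36.4 in fibroblasts and 4.55 ± 0.86 in T cells, and was called higher against both. Among the RB and E2F genes, 6 of 10 were called lower and 1 higher in the epithelium against macrophages, with E2f1 at 5.24 ± 2.1 against 21.5 ± 2.6 CPM, and 2 lower and 4 higher against fibroblasts. Of the 7 genes of FoxM1 and the MuvB complex, 4 were called lower against macrophages, 4 against T cells and 2 against fibroblasts, where 2 were called higher.

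The CDK inhibitors were called in both directions. Against macrophages, Cdkn1b (p27), Cdkn1c, Cdkn2a and Cdkn2b were higher and Cdkn1a (p21) and Cdkn2d lower in the epithelium, with Cdkn1a at 128 ± 22 against 360 ± 60 CPM. Against fibroblasts, 5 of 7 were lower and Cdkn1b higher. Granulocytes held more Cdkn1b (284 ± 82 against 43.6 ± 4.2 CPM), Cdkn2d (227 ± 42 against 34.6 ± 6.3 CPM) and Cdkn1a (774 ± 220 against 360 ± 60 CPM) than macrophages, and E2f8 and Foxm1 had no UMI in them. Of the p53 axis, Trp53 was called higher in the epithelium against macrophages (111 ± 10 against 62.5 ± 10.8 CPM) and against fibroblasts.

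The genotypes were compared over 2 libraries each. No gene of 16288 in epithelial barcodes, 12863 in macrophages and 13330 in fibroblasts was called (0.0% in each, edgeR), and so 0 of 48 members. Unadjusted p values were under 0.05 for 371, 268 and 516 genes, and DESeq2 called 57, 14 and 38, of which 0 were members. The members' median log2 fold change, Cre+ over Cre-, was -0.14, 0.04 and 0.24. The fibroblast median turned to -0.17 with 3 marker genes in the gate, to -1.03 within the depth limits (31 members fitted) and to -0.21 without Cre+ replicate 4, and the epithelial median turned to 0.53 within the depth limits. On simulated counts of the epithelial comparison, 39 of 100 genes changed by 1 on the log2 scale were called, and 100 of 100 changed by 2. The changed genes were drawn from highly expressed ones, with a single fixed spread between libraries that was not taken from the data. This recovery may therefore be too high for the members, many of which had lower levels. It does not show that changes of these sizes would have been called in the data, where Frmd8 was not called.

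In the epithelium both Cre+ libraries lay below both Cre- libraries for 7 members (Mcm6, Dtl, Bub1b, Gins2, Kif23, Mcm4 and Uhrf1), against 15.8% of all genes, and above for 0, against 11.9%. Of these, Kif23 (6.95, 12.0, 6.39 and 5.40 CPM, log2 -0.63 ± 0.37), Mcm4 (26.1, 24.5, 17.2 and 15.1 CPM, -0.59 ± 0.20) and Uhrf1 (-0.58 ± 0.39) had the largest changes. Only Mcm4 among the 48 had an unadjusted p under 0.05, and its adjusted p was 1.00 (edgeR). Mki67 had a log2 fold change of -0.27 ± 0.36 (edgeR, adjusted p = 1.00). The sign of 35 members was negative, but within the depth limits 44 of 48 were positive, and without Cre+ replicate 4 all 48 were negative.

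In macrophages 0 members lay apart in either direction, against 6.55% of genes above and 18.8% below. In fibroblasts 3 of 48 members were higher in both Cre+ libraries, against 10.8% of genes, and 0 were lower, against 19.7%. The higher ones were Mki67 (34.4, 35, 35.4 and 68.1 CPM, log2 0.59 ± 0.31), Kif23 (9.16, 6.74, 9.82 and 13.1 CPM, 0.56 ± 0.27) and Mcm4 (14.1, 14.3, 14.8 and 18.3 CPM, 0.25 ± 0.18). With 3 marker genes in the gate, 38 of 48 members had a negative log2 fold change in fibroblasts. Leaving out 1 Cre+ library turned the macrophage result. Without Cre+ replicate 2 the members' median log2 fold change was 0.63, with all 48 positive. Without Cre+ replicate 4 it was -1.23, with all 48 negative. Each of these fits rests on a single Cre+ mouse and describes that mouse, not the genotype.

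The G2/M-positive share of epithelial barcodes averaged 9.92% ± 4.58 (SD, n = 2) without Cre and 11.3% ± 8.8 with it. The means lay 1.35 points apart (p = 1.0 by a two-sided exact permutation test, which cannot go below 0.333 for 2 against 2). S-positive shares were 8.22% ± 3.17 and 8.73% ± 4.99, a difference of 0.51 points (exact permutation p = 1.0). In macrophages the G2/M-positive shares were 7.97% ± 1.10 and 10.1% ± 10.4, a difference of 2.14 points (exact permutation p = 1.0). The SD within a genotype exceeded the difference in each comparison except among Cre- macrophages.

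Epithelial barcodes called G2/M-positive were then described against the rest of their own library, for genes the call did not use. All 21 S-phase genes were higher in the positive barcodes of all 4 libraries, where 32.1% of 10043 genes of at least 5 CPM were higher and 35.6% lower in all 4. The median ratio was 14.6 for Pclaf, 10.3 for Rrm2, 3.23 for Pcna and 2.73 for Gins2. Rrm2 had 110, 145, 120 and 256 CPM in positive and 11, 17.3, 7.52 and 21.5 CPM in negative barcodes. Of the G2/M-positive barcodes, 42.9%, 46.8%, 54.0% and 47.5% were also S-positive.

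Of the regulators, Foxm1, which drives mitotic genes, had a median ratio of 9.26, the repressor E2f8 7.44, E2f7 5.49, Mybl2 5.04 and E2f1 3.96, each higher in 4 of 4 libraries. Lower in 4 of 4 were Rb1 (0.56), Rbl2, E2f5, Cdkn1a (0.68), Cdkn1b (0.73) and Cdkn2b (0.43), while the inhibitors Cdkn2a (1.87), Cdkn2c (3.04) and Cdkn2d (4.13) were higher. Among lineage markers, 4 of 5 luminal progenitor genes were lower in 4 of 4, with Kit at 0.36 and Cd14 at 0.28 times the level of the rest, and 3 of 6 casein and whey genes, 5 of 7 basal genes and 4 of 5 keratinocyte genes were lower, against the 35.6% of all genes. Of the hormone-sensing genes 1 of 6 was lower in all 4 (Areg). None of these lineage genes was higher in all 4 libraries. Positive barcodes had median UMIs of 51458, 21861.5, 20596.5 and 8817 against 21541, 19218, 12996 and 12454, higher in 3 of 4 libraries and lower in Cre+ replicate 4. The part of depth in these ratios was not tested.

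Epithelial subclasses, again by marker gates, were given as a description, with no test between them, and not all held enough barcodes in every library. Barcodes with casein markers alone (alveolar) were G2/M-positive at 7.29%, 9.68%, 3.60% and 37.4% of 417 to 537 barcodes in the first 3 libraries and 238 in Cre+ replicate 4. Luminal progenitor barcodes had 1.88%, 10.4%, 3.35% and 6.78%. Those that met both lists had 5.28%, 12.9%, 5.0% and 15.7%. Hormone-sensing barcodes were G2/M-positive in 11% of 282 in Cre- replicate 1 and 23.1% of 78 in Cre+ replicate 2, and the other libraries held 6 and 1 such barcodes. Basal barcodes held 1 positive barcode in each library, of 4, 36, 10 and 93. Epithelial barcodes below every subclass gate had 14.2%, 19.1%, 9.58% and 24.1%, with medians of 2937.5 to 4539 UMIs.

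The depth limits would remove 21.5% to 30.6% of the barcodes used. In macrophages the G2/M-positive share was 22.8%, 25%, 15.1% and 33.9% above the limits and 4.74%, 5.10%, 1.93% and 13.1% within them. In the epithelium it was 9.33%, 15.1%, 7.58% and 13.1% above and 4.29%, 11.8%, 3.81% and 19.1% within. The epithelial difference was 1.52 points (exact two-sided sign-flip test over 4 mice, p = 0.625), positive in 3 of 4 libraries and negative in Cre+ replicate 4. It ranged from 0.35 to 4.06 points when 1 library was left out, the highest being without Cre+ replicate 4. In barcodes of at least 1% mitochondrial UMIs, a filter added after seeing the data, it was 5.79 points, positive in 4 of 4 libraries. Cre+ replicate 4 then had 12.2% above and 8.38% within (exact sign-flip p = 0.125). The filter took out barcodes with a higher G2/M-positive share, so these values are a description.

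A further set of epithelial barcodes had under 1% mitochondrial UMIs. They made up 8.03%, 13.3%, 8.32% and 25% of the class, and the G2/M-positive share among them was 14.8%, 26.4%, 14.4% and 40.7%, against 5.97%, 11.1%, 4.19% and 9.73% in the rest. Of the members, 39 of 48 were higher there in all 4 libraries and 1 lower (Cenpe), where 22.3% of 9922 genes of at least 5 CPM were higher and 35.7% lower. Ube2c stood at 153, 446, 200 and 600 CPM in them against 56.7, 115, 57.4 and 91.8 CPM, whereas Mki67 was higher in only 1 of 4 libraries. Their median UMIs were 3394.5, 4342, 4198 and 6158, and Malat1, a nuclear RNA, was lower in them, at 3686, 2432, 4942 and 4641 CPM against 11200, 12187, 14517 and 10115 CPM. Macrophages under 1% had 10.5%, 10.5%, 4.35% and 16.5% positive, against 6.71%, 8.51%, 2.47% and 17.7%. Without the epithelial barcodes under 1%, a split added after seeing the data, the epithelial share was 5.97%, 11.1%, 4.19% and 9.73%. The part of the barcodes under 1% in the differences between libraries was not tested.

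**Figure D5:**
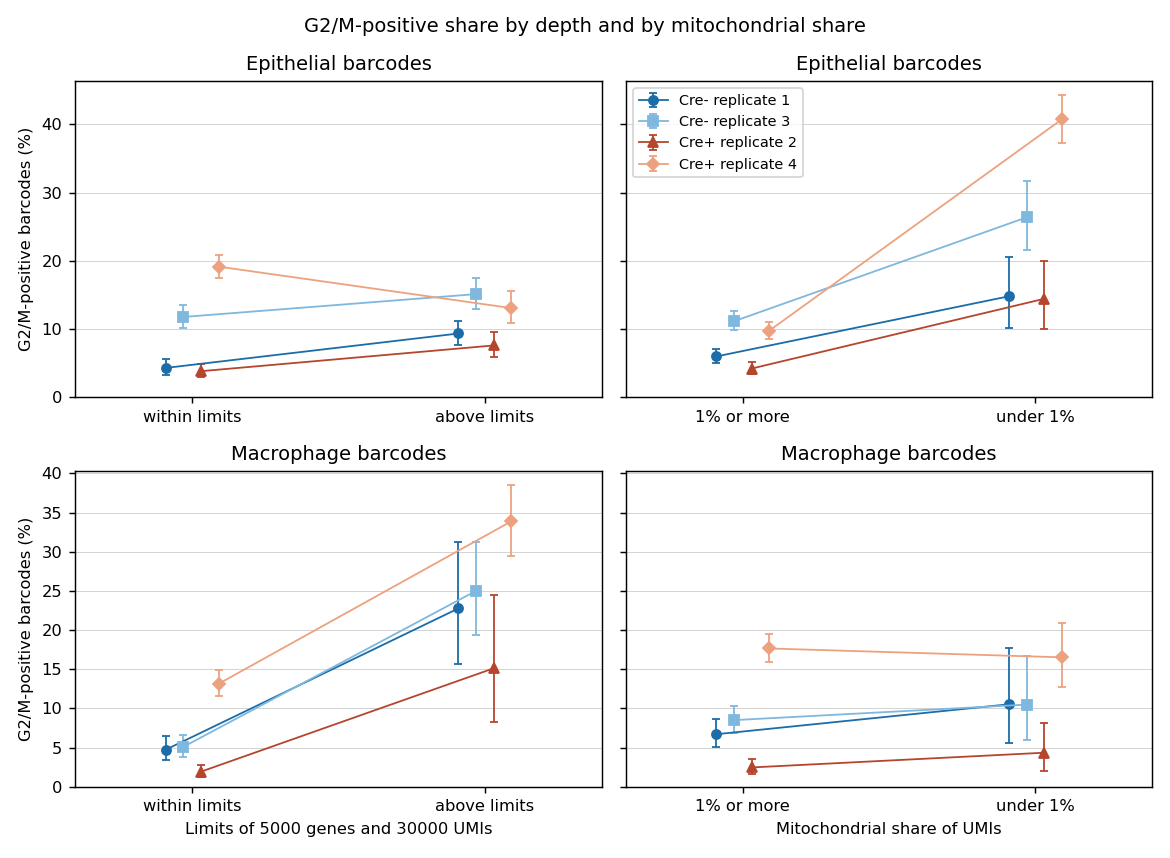
G2/M-positive barcodes in percent on a linear axis, for epithelial (top) and macrophage barcodes (bottom), within and above the limits of 5000 genes and 30000 UMIs (left) and at 1% or more and under 1% mitochondrial UMIs (right). Symbols are libraries, lines join the same library, and bars are 95% exact binomial intervals. The macrophage share is higher above the limits in all 4 libraries, and the epithelial share is higher under 1% in all 4.

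Across 40 sums of a class in a library (at least 25 barcodes each), the G2/M members followed one another more closely than they followed the S-phase members. The median Spearman correlation of a G2/M member was 0.90 with the sum of the other G2/M genes and 0.79 with the S-phase sum, and 24 of 25 were closer to their own group, Pbk being the exception. For S-phase members it was 0.84 with their own group and 0.70 with the G2/M genes, with Pclaf, Ccne1 and Dtl closer to G2/M. Ccna2 and Tpx2, which activates Aurora A on the spindle, had the highest correlation with the G2/M sum (0.97 each), and Kif23 (0.36) and Hmgb2 (0.48) the lowest. These points share libraries and differ in depth, so the values are a description.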

How the data were processed

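Single-cell 3′ libraries of 4 mouse mammary tumors (10x Genomics chemistry, 1 per mouse) were analysed from the deposited UMI counts, whole-number counts per gene and barcode that the authors made with Cell Ranger 6.1.2 (3 libraries, called cells) or Cell Ranger 4 (Cre+ replicate 4, all barcodes). The submitters' processing notes name a human genome build although the gene identifiers are those of mouse, so the build of the counts is not settled, and no coordinate was taken from them. Barcodes of at least 1000 UMIs and at most 20% mitochondrial UMIs were kept. The members, the lists and the markers were chosen with earlier results of these data known, and the scoring rule of the gates was set after seeing the data. A barcode was gated to the class whose marker UMIs per 10000, divided by the class's reference level, were highest and at least 0.25, with 2 or more marker genes detected. Barcodes with a second class at 0.5 times the first or more were left out as mixed, and no doublet caller was run. The low-level genes of a class carry free RNA. Granulocytes served as a reference class that should not divide, and not as a measure of free RNA.

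Counts were summed per class and library and tested with edgeR 4.0.16 in R 4.3.3 (quasi-likelihood test, TMM, filterByExpr, Benjamini-Hochberg threshold 0.05 over all genes), with the mouse as a block between classes and no block between genotypes. The SE of a log2 fold change was its absolute value divided by the square root of the F statistic of this test. Shares were compared with exact permutation or sign-flip tests over mice (scipy 1.17.1). The scripts were tested on simulated data. DESeq2 1.42.0, other filters, gates, depth limits and leaving out each library were alternatives. Values per library are given for a fixed set of members (cyclins, kinases, MCM and nucleotide genes and the markers Mki67 and Top2a), the highest and lowest member by role, and, per comparison, the up to 3 higher and 3 lower members of greatest fold change whose libraries did not overlap. Called genes outside that rule, such as Cdc20 against macrophages, were named after their values were seen.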

Additional observations from a re-analysis of the deposited data

Results flagged for a closer look

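Barcodes of Cre+ replicate 4 with at most 100 UMIs, taken as empty, held 4981956 UMIs in all. The G2/M genes stood at 833 CPM and the S-phase genes at 585 CPM in them, with Mki67 at 49.4 CPM and Top2a at 52.6 CPM. These barcodes enter no comparison, and they drew attention because members were detected outside the cells. The G2/M level in the granulocytes of the same library was 95.8 CPM, and in its epithelial barcodes 902 CPM.

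Cdc45, which starts the unwinding of DNA at origins, differed in direction between the genotypes when epithelial barcodes were set against fibroblasts of the same mouse. The log2 ratio was 0.63 and 0.26 in the Cre- mice and -0.19 and -0.21 in the Cre+ mice, a difference of -0.64. The difference was not tested. The gene was singled out by this pattern, and how often other genes show it is not given here. Its level was low, at 3.42 to 6.50 CPM in epithelial barcodes of at least 1% mitochondrial UMIs. The fibroblasts of Cre+ replicate 4 held 473 CPM of S-phase genes, but 292 CPM with 3 marker genes in the gate. The Cdc45 ratio under that gate is not given here.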

How the results depend on the processing

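No paired analysis was possible because the genotypes share no replicate number. Between classes, dropping the mouse as a block gave 9253, 8659, 8076 and 5290 genes called against macrophages, fibroblasts, T cells and granulocytes, with 12, 10, 25 and 42 members. The genotype difference in the epithelial G2/M-positive share turned to -0.055 points with an order-of-magnitude cell call for Cre+ replicate 4, to -9.96 without thinning and to -1.59 in barcodes of at least 1% mitochondrial UMIs, an alternative added after seeing the data. The S-positive share turned to -0.38, -9.08 and -1.52 points in the same settings. Leaving out 1 library gave -4.87 to 7.57 points for G2/M, -3.02 to 4.04 for S and -5.22 to 9.50 for G2/M in macrophages, with reversals without Cre- replicate 1 (epithelium) and without Cre+ replicate 4 (all 3). The cause was not tested. Genes called between genotypes in epithelial barcodes, macrophages and fibroblasts were 57, 14 and 38 with DESeq2, and 6 in macrophages and 53 in fibroblasts with no filter on low counts. Leaving out 1 library gave 0 to 6, 0 to 1507 and 0 to 22. Macrophages against granulocytes had 2251 genes called at 5000 UMIs or more, 2611 with the order-of-magnitude call and 2282 at 1% mitochondrial UMIs or more. Within the upper depth limits, the genotype log2 fold changes of Kif23 and Uhrf1 in the epithelium were 0.49 and 0.10, those of Mki67 and Mcm4 in fibroblasts -1.86 and -0.33, and Pbk against T cells -0.12. Mki67 between genotypes in the epithelium ranged from -0.64 to 0.21 when 1 library was left out, the reversal being without Cre- replicate 3, and Kif23 against granulocytes 0.23 at 5000 UMIs or more. Of 37 gene results, 16 kept direction and call in every alternative. With 2 mice per genotype and 27 to 78 granulocyte barcodes in 3 libraries, small differences were not detectable.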
